A study of Mus musculus with 8 samples.

Results

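Epithelial-to-mesenchymal transition (EMT) was read from 10 genes in primary murine pancreatic ductal adenocarcinoma (PDAC) cells after MEK inhibition. These genes were the transcription factors Snai1, Snai2, Twist1, Zeb1 and Zeb2, the cadherins Cdh1 and Cdh2, the filament gene Vim and the epithelial genes Epcam and Grhl2. They were taken by symbol from the table of normalized counts, in which all 10 were found among 34478 genes. The 4 cell lines, numbered #1, #3, #5 and #10, came from pancreatic tumors of a genetically engineered mouse model whose alleles include Ptf1awt/Cre and Trp53loxP/loxP, so both groups carry a Trp53 allele pair open to deletion, with Cre expressed from the Ptf1a locus, which is active in the developing pancreas. Each line was sequenced once after DMSO and once after 48 h of the MEK inhibitor trametinib at that line's own IC50, giving 8 polyA libraries in 2 groups (DMSO and MEKi). The labels do not say whether the lines came from separate mice, and the concentrations are not given in the sources used here. The limma p-values and standard errors (SE) rest on the spread of the change between these 4 lines, moderated toward the trend over all genes tested.

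In EMT, epithelial cells loosen their junctions and take on the shape and motility of mesenchymal cells. SNAIL, ZEB and TWIST factors bind E-box elements in the DNA and repress epithelial genes, with Cdh1 (E-cadherin) as the textbook target, while Cdh2 (N-cadherin) and Vim (vimentin) mark the mesenchymal state, and the exchange of Cdh1 for Cdh2 is known as the cadherin switch. GRHL2 works in the opposite direction and maintains Cdh1 and other junction genes. In PDAC the program is associated with invasion and drug resistance.

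The libraries held 30680091 to 36385719 normalized counts, from an estimated 29331500 to 45952700 reads, and 3 reads corresponded to between 2.325 and 3.7215 normalized counts. A value of 0 is given as listed at 0, because 18 genes of the table were above 1000 in one library and at 0 in another. Of 8 markers of ductal tumor cells, 7 were above 3 reads in all 8 libraries, with Krt8 between 27587 and 132484 normalized counts, and the exception was Epcam. The summed ductal markers ranged from 231006 to 353416 with DMSO and from 119359 to 231497 with MEKi. Of 12 fibroblast markers, Lum was listed at 0 in every library and 3 reached 100 normalized counts in any library, namely Pdgfra, Col1a1 and Fbln1. Their sum lay between 2621 and 3059 with DMSO and between 2490 and 3252 with MEKi. Most of the sum with DMSO was Fbln1 (2514 to 2899), which fell to between 1403 and 2153 with MEKi (1.52-fold, limma adjusted p = 0.0052), while Col1a1 rose 12.1-fold (0.00087). Pdgfra, Dcn, Thy1 and Col3a1 were not called (limma adjusted p = 0.91, 0.99, 0.84 and 0.64). The summed markers of leukocytes (6 genes, 153 to 233 with DMSO and 238 to 519 with MEKi), of endothelial cells (5 genes, 35.2 to 62.9 and 63.7 to 837) and of acinar cells (5 genes, 31.0 to 249 and 20.3 to 125) were far below the ductal sum, and the acinar marker Cpa1 was listed at 0 in all libraries. The acinar marker Cela1 was called lower (limma adjusted p = 0.026, and 0.52 without the block). Among the leukocyte markers Csf1r was called higher (1.05 to 46.9 normalized counts with DMSO and 14.2 to 340 with MEKi, 7.11-fold, limma adjusted p = 0.00070, and 0.089 without the block), whereas Ptprc, Cd68 and Itgam were not called (0.92, 0.47 and 0.53). Among the endothelial markers Tek was called higher (1.30 to 21.5 with DMSO and 13.5 to 805 with MEKi, limma adjusted p = 0.0015), whereas Pecam1 and Kdr were not called (0.82 and 0.28), and the highest endothelial sum, 837, was nearly all Tek. The DMSO mean of Tek was 8.21, below the mean of 10 normalized counts required for testing. Only its MEKi values (mean 250) brought it into the test. These markers were picked with their values known, and their part in the results was not tested. Fewer cells of a type and less RNA per cell cannot be told apart in such bulk libraries.

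The sequences just upstream of 3 of these genes show where E-boxes of the SNAIL and ZEB type lie. They cover the 250 bases before the RefSeq start on GRCm38.p6, 5′ to 3′ on the gene's strand, with CACCTG on either strand in capitals, and none of the 3 overlaps an exon of GENCODE M21. Epcam (chr17:87635729-87635978, plus strand) is shown because it is listed at 0 in 6 of the 8 libraries, Snai1 (chr2:167537945-167538194, plus strand) as the SNAIL factor that was higher in each line with MEKi, and Zeb2 (chr2:45117443-45117692, minus strand) as the called factor with a window of this kind.
Epcam: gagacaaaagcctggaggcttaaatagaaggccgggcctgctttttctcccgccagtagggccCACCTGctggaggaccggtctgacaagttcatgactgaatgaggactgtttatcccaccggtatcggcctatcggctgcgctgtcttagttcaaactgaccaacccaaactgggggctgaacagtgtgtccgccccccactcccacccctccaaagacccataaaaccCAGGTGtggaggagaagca
Snai1: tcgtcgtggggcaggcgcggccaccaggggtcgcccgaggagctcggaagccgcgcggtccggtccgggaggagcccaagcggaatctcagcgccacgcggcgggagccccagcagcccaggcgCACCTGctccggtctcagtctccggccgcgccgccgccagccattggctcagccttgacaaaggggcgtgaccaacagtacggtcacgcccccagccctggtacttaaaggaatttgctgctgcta
Zeb2: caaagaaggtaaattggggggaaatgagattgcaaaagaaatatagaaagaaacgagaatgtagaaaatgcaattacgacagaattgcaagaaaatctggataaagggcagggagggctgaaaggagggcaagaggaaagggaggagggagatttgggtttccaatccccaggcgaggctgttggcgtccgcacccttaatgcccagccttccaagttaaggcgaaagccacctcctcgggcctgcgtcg
The Epcam window held 2 copies of CACCTG, starting 187 and 19 bases before the gene's start, and the Snai1 window held 1, starting 126 bases before it. No copy was found in this Zeb2 window or in the Twist1 window. CACCTG, which is 1 form of the wider E-box CANNTG, occurred in 17.2% of all 32851 windows of this length, and CANNTG in 66.2%. The AP-1 motif TGANTCA (6.75% of windows) and the GRHL motif AACCNGTT (1.79%) were absent from the 3 windows shown, counted on both strands. AP-1 letters occurred 2 times in a further Zeb2 window (chr2:45110278-45110527), of which 191 bases lie in annotated exons. The remaining Zeb2 windows and the Vim window, which lie wholly in annotated exons, held neither CACCTG nor AP-1 letters. These matches describe letters in a window and no binding was measured.

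With MEKi, the cadherin balance and the ZEB factors moved while Cdh1 stayed within the spread of the lines. Cdh2, Zeb1 and Zeb2 rose, Vim fell, and Cdh1, Snai1, Snai2 and Twist1 did not pass the test. Epcam and Grhl2 were below the filter of a mean of 10 normalized counts and were not tested. So 8 of the 10 genes were tested, of which 3 were called higher, 1 lower and 4 neither (limma with lines as blocks, Benjamini-Hochberg adjusted p under 0.05). Among all 15888 genes tested, 27.3% were called higher and 25.6% lower, so a call in this comparison was common. The MEKi and DMSO libraries did not overlap for Cdh2 and Zeb1, and the same held for 31.3% of all genes tested.

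**Figure D1:**
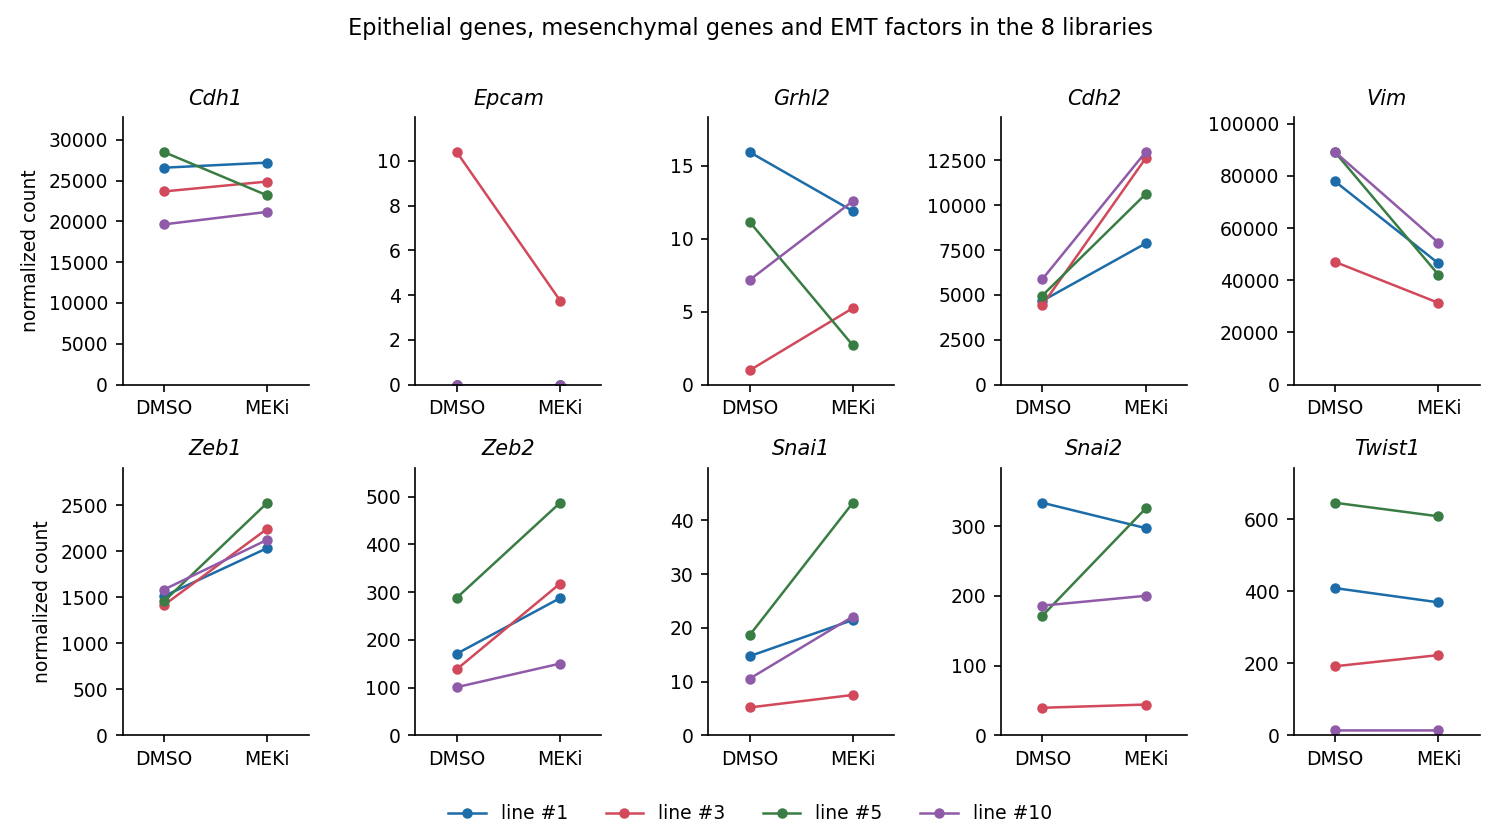
Normalized counts (vertical axes, each starting at 0) of the 10 genes with DMSO and with MEKi, 1 point per library and 1 line per cell line. Cdh2, Zeb1, Zeb2 and Snai1 are higher with MEKi in all 4 lines and Vim is lower in all 4, while Epcam lines #1, #5 and #10 lie on top of each other at 0.

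Among the epithelial genes, Cdh1 (8:106603351-106670246, plus strand, GRCm38) encodes the cadherin of adherens junctions. With DMSO it had 26573 normalized counts in line #1, 23663 in #3, 28487 in #5 and 19630 in #10, and with MEKi 27194, 24876, 23173 and 21158. It was slightly higher in 3 lines and lower in line #5, and the groups overlapped. The log2 fold change was -0.02 ± 0.11 (SE, n = 4 lines), with a 95% interval from -0.27 to 0.23 (limma adjusted p = 0.88). On the linear scale of normalized count + 1 this interval runs from 0.828-fold to 1.17-fold. The sign was not stable, since it was positive after scaling all libraries to 1 common total (0.11), after quantile normalization (0.26) and without line #5 (0.07). Cdh1 is also a synonym of Fzr1, a cell-cycle gene, but Fzr1 has its own row in the table.

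Epcam (17:87635979-87651129, plus strand), which encodes a surface adhesion molecule used to sort epithelial cells, was listed at 0 in both libraries of lines #1, #5 and #10. Line #3 had 10.4 normalized counts with DMSO and 3.75 with MEKi, the latter close to the level of 3 reads. Cdh1 and the keratins were abundant in the same libraries. Grhl2 (15:37233036-37363569, plus strand), the grainyhead factor that maintains epithelial junctions, was also low, with 15.9, 0.97, 11.2 and 7.16 normalized counts in lines #1, #3, #5 and #10 with DMSO and 11.9, 5.24, 2.69 and 12.6 with MEKi. It was higher in 2 lines and lower in 2, and 1 library was below 3 reads. Its relatives were better read: Grhl3 rose 2.78-fold and Grhl1 fell 1.91-fold (values below).

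Of the mesenchymal genes, Cdh2, which encodes the N-cadherin of adherens junctions in nerve, muscle and mesenchyme, had 4667 normalized counts in line #1, 4430 in #3, 4963 in #5 and 5875 in #10 with DMSO. With MEKi it had 7870, 12617, 10621 and 12963. The lowest MEKi library was above the highest DMSO library. The rise was 2.18-fold, a log2 fold change of 1.13 ± 0.13 (SE, n = 4 lines, limma adjusted p = 0.00080), and the ratios in single lines were 1.69 in #1, 2.85 in #3, 2.14 in #5 and 2.21 in #10.

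Vim (2:13573927-13582826, plus strand), the intermediate filament of mesenchymal cells, moved the other way. It had 77831, 46992, 88983 and 89101 normalized counts in lines #1, #3, #5 and #10 with DMSO and 46456, 31314, 42092 and 54384 with MEKi. Every line fell, but the groups overlapped because line #3 with DMSO was below line #10 with MEKi. The log2 fold change was -0.78 ± 0.12 (SE, n = 4 lines, limma adjusted p = 0.0023), a fall of 1.72-fold. Without the cell line block, the adjusted p was 0.052. The 2 mesenchymal markers thus separated, and Cdh2 changed by 1.91 ± 0.30 log2 units more than Vim (SD, n = 4 lines), with a positive difference in 4 of 4 lines.

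**Figure D2:**
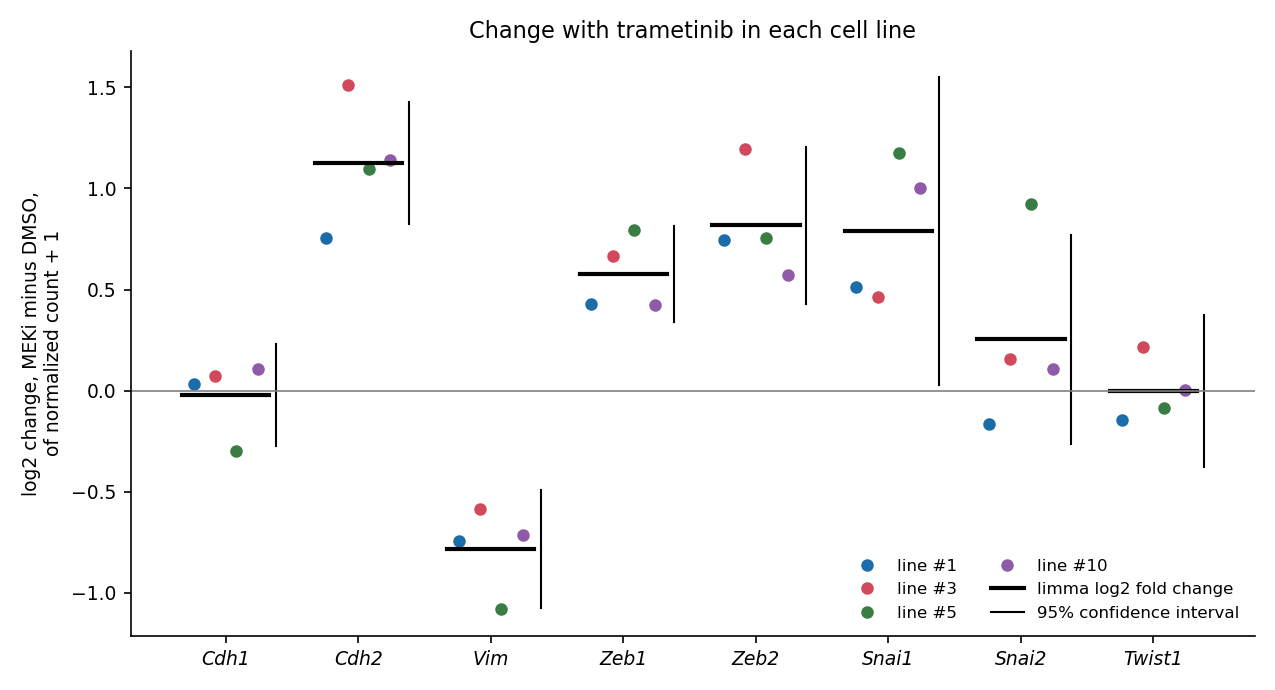
Change of log2(normalized count + 1) from DMSO to MEKi (vertical axis) for the 8 genes tested; points are the 4 cell lines, the thick bar is the limma log2 fold change and the thin line its 95% confidence interval. Cdh2, Zeb1 and Zeb2 lie above 0 and Vim below 0 in all lines, whereas the points of Cdh1, Snai2 and Twist1 fall on both sides of 0.

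The ZEB factors repress epithelial genes through paired zinc finger clusters. Zeb1 had 1511, 1413, 1454 and 1582 normalized counts in lines #1, #3, #5 and #10 with DMSO, the narrowest spread of the 8 genes tested, with the highest line 1.12-fold above the lowest. With MEKi it had 2033, 2243, 2524 and 2123, so that the groups did not overlap. The rise was 1.49-fold, with a log2 fold change of 0.58 ± 0.10 (SE, n = 4 lines, limma adjusted p = 0.0033). The antisense gene Gm10125 overlaps Zeb1 on the opposite strand and had 11.05 to 47.4 normalized counts, and the strand setting of the counting is not given in the sources used here.

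Zeb2 (2:44983632-45117395, minus strand) had 171, 138, 288 and 101 normalized counts with DMSO and 288, 318, 487 and 150 with MEKi in the same order of lines. It rose in every line, by 1.49-fold to 2.30-fold, but line #5 was so much higher than line #10 in both groups that the groups overlapped. The log2 fold change was 0.82 ± 0.16 (SE, n = 4 lines, limma adjusted p = 0.0058), and the call was lost without the cell line block (adjusted p = 0.18). Its overlapping antisense gene Zeb2os did not exceed 2.67 normalized counts. Per kb of exon, Zeb1 was read at 138 to 154 normalized counts with DMSO and Zeb2 at 5.06 to 14.5.

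Of the SNAIL and TWIST factors, Snai1, Snai2 and Twist1 gave no call, whereas their relatives Snai3 and Twist2 were called lower (values below). Snai1 (2:167538195-167542814, plus strand), which encodes the short-lived repressor SNAIL, was low, with 14.7, 5.18, 18.6 and 10.5 normalized counts in lines #1, #3, #5 and #10 with DMSO and 21.5, 7.51, 43.3 and 22.1 with MEKi. All 4 lines were higher with MEKi, by 1.45-fold to 2.33-fold, but the groups overlapped. The log2 fold change was 0.79 ± 0.32 (SE, n = 4 lines, limma adjusted p = 0.076), with a 95% interval from 0.03 to 1.55. Over the alternatives the adjusted p ran from 0.017 to 1.0, and it was under 0.05 after scaling to a common total (0.049) and with eBayes without trend (0.017).

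Snai2 (16:14705852-14709385, plus strand), which encodes SLUG, had 333, 39.4, 171 and 186 normalized counts with DMSO and 297, 44.1, 325 and 200 with MEKi. The largest step was that of line #5, with a ratio of 1.90, whereas the others lay between 0.891 and 1.12. The log2 fold change was 0.25 ± 0.22 (SE, n = 4 lines, limma adjusted p = 0.35), with an interval from -0.26 to 0.77, and it turned to -0.11 with quantile normalization.

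Twist1 (12:33957671-33959829, plus strand), a basic helix-loop-helix factor of mesoderm, differed far more between lines than between treatments. It had 408 normalized counts in line #1, 192 in #3, 645 in #5 and 13.4 in #10 with DMSO, and 369, 222, 608 and 13.5 with MEKi. The highest line was 48.1-fold above the lowest with DMSO and 45.2-fold with MEKi, in the same order of lines. The log2 fold change was close to 0 with a 95% interval from -0.38 to 0.37 (limma adjusted p = 0.99), and its sign turned to positive after scaling to a common total (0.12) and without line #1 (0.04) or #5 (0.02).

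At baseline, among the 8 genes tested, the lines differed most in Twist1 and Snai2. With DMSO, the highest line exceeded the lowest by 1.12-fold for Zeb1, 1.33-fold for Cdh2, 1.45-fold for Cdh1, 1.90-fold for Vim, 2.86-fold for Zeb2, 3.59-fold for Snai1, 8.46-fold for Snai2 and 48.1-fold for Twist1. Line #5 was highest for Snai1, Twist1, Zeb2 and also Cdh1, whereas line #3 was lowest for Snai1, Snai2, Zeb1, Cdh2 and Vim. Line #10 had the highest Cdh2, Vim and Zeb1 and the lowest Cdh1, Zeb2 and Twist1. With 1 library per line these orders have no replicate check. Per kb of exon and with DMSO, the factors were read in the ranges 8.23 to 396 for Twist1, 138 to 154 for Zeb1, 19.5 to 165 for Snai2, 5.06 to 14.5 for Zeb2 and 3.19 to 11.5 for Snai1. Only the ranges of Zeb1 and Zeb2, of Zeb1 and Snai1, and those of Snai2 against Zeb2 and Snai1 were apart, and the other pairs of factors overlapped.

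The cadherin switch was followed as a ratio per line. Per kb of exon, Cdh1 exceeded Cdh2 by 10.0-fold in line #1, 9.42-fold in #3, 10.1-fold in #5 and 5.89-fold in #10 with DMSO. With MEKi the ratios were 6.09, 3.48, 3.85 and 2.88. The ratio fell in each of the 4 lines, but line #10 with DMSO was below line #1 with MEKi. As a share of both cadherins, Cdh1 went from 90.9%, 90.4%, 91.0% and 85.5% to 85.9%, 77.7%, 79.4% and 74.2%. Cdh1 therefore remained the more abundant transcript per kb in all 8 libraries. Without division by exon length, Cdh1 exceeded Cdh2 by 5.69-fold, 5.34-fold, 5.74-fold and 3.34-fold with DMSO. With MEKi these uncorrected ratios were 3.46, 1.97, 2.18 and 1.63, so the size of the excess depends on the lengths used. The log2 change of Cdh1 minus that of Cdh2 was -0.72, -1.44, -1.40 and -1.03, a mean of -1.15 ± 0.34 (SD, n = 4 lines, no test), and the Cdh1 change contributed between -0.30 and 0.11 to it.

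The epithelial pair Cdh1 and Epcam and the EMT factors were also set against each other as groups. Epcam was listed at 0 in both libraries of lines #1, #5 and #10, so its change there is 0 by construction. The mean log2 change of the pair minus that of Snai1, Snai2, Twist1, Zeb1 and Zeb2 was -0.26 in line #1, -1.13 in #3, -0.86 in #5 and -0.37 in #10, or -0.66 ± 0.41 (SD, n = 4 lines). With Cdh1 alone in place of the pair, an alternative chosen after seeing the data, the difference was -0.24, -0.47, -1.01 and -0.31, or -0.51 ± 0.35 (SD, n = 4 lines). Against the mesenchymal pair Cdh2 and Vim the difference was 0.01, -1.06, -0.16 and -0.16, or -0.34 ± 0.48 (SD, n = 4 lines), which is smaller than its spread. Without line #3 it was -0.10. In line #3 the epithelial pair was at -0.59, with the only Epcam counts, and the mesenchymal pair at 0.46, while in the other lines the epithelial pair lay between -0.15 and 0.05, with Epcam listed at 0, and the mesenchymal pair between 0.0046 and 0.21. The mesenchymal pair itself moved by 0.17 ± 0.22, as the rise of Cdh2 and the fall of Vim offset each other.

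**Figure D3:**
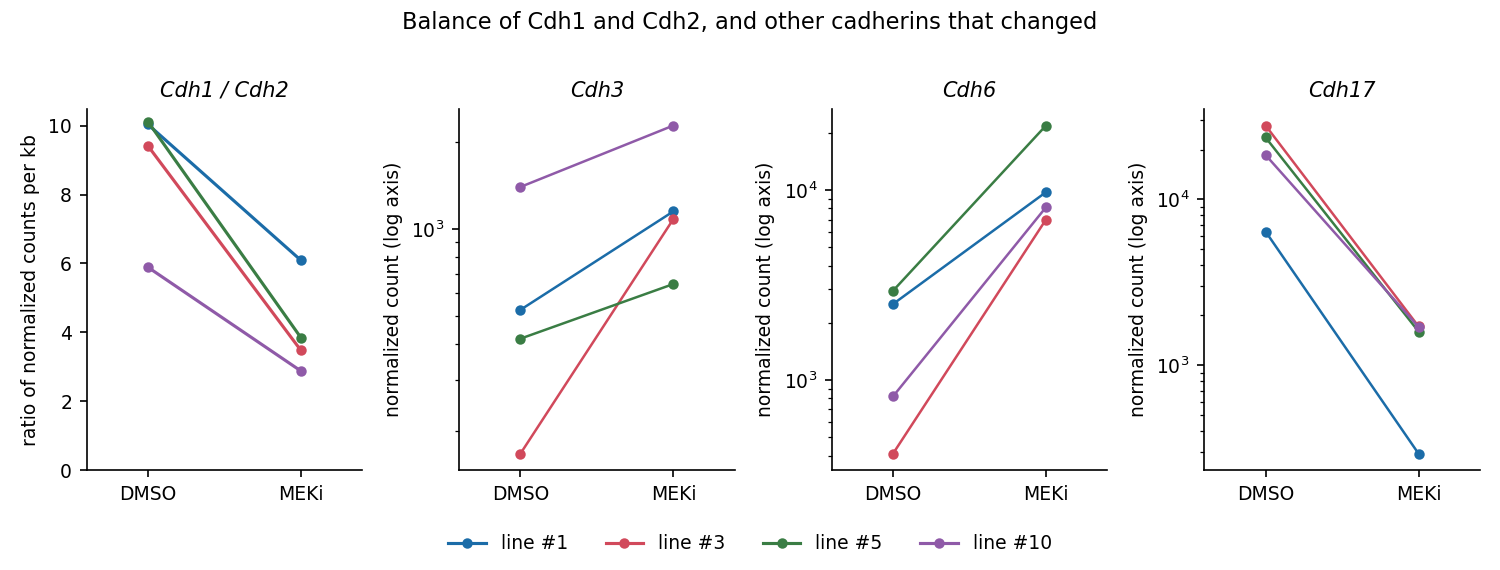
Left, ratio of Cdh1 to Cdh2 in normalized counts per kb of exon (linear axis from 0) with DMSO and MEKi; right, normalized counts of Cdh3, Cdh6 and Cdh17 on log axes; points are libraries and lines join the 2 libraries of a cell line. The ratio falls in all 4 lines, Cdh3 and Cdh6 are higher and Cdh17 is lower with MEKi in all 4.

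Among other cadherins and their partners, more genes rose than fell. Of 14 tested genes of this group, 8 rose, 1 fell and 5 did not pass (57.1% and 7.14% beside 27.3% and 25.6% of all genes tested, with a median log2 fold change of 0.42 beside 0.07). Cdh6, a type II cadherin known as K-cadherin, had 2511, 410, 2950 and 820 normalized counts in lines #1, #3, #5 and #10 with DMSO and 9754, 6997, 21874 and 8124 with MEKi. It rose 8.35-fold, a log2 fold change of 3.06 ± 0.31 (SE, limma adjusted p = 0.00057), and the groups did not overlap. Cdh3 (P-cadherin) had 526, 168, 418 and 1398 normalized counts with DMSO and 1152, 1084, 646 and 2279 with MEKi, a rise of 2.44-fold (adjusted p = 0.016, limma, and 0.14 without the block). Cdh17, the liver-intestine cadherin of gut epithelium, fell from 6402, 27923, 23659 and 18550 normalized counts to 293, 1713, 1596 and 1701. This was a fall of 15.5-fold (log2 fold change -3.95 ± 0.16, SE, limma adjusted p = 7.8e-05), so the epithelial cadherins did not share 1 direction. Among the cytoplasmic partners, named after their values were seen, Jup (plakoglobin) rose 2.04-fold, Ctnnd1 (p120-catenin) 1.66-fold and Ctnnb1 (β-catenin) 1.25-fold, with limma adjusted p = 0.0011, 0.0012 and 0.040 (the last was 0.12 without the block), and Ctnna1 (α-catenin) was at 0.15 on the log2 scale (limma adjusted p = 0.21).

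The wider mesenchymal genes mostly rose. Of 24 tested, 15 were higher, 1 was lower and 8 did not pass (62.5% and 4.17% beside 27.3% and 25.6% of all genes tested, median log2 fold change 1.22). The 15 higher calls became 12 without line #5 and 10 without the block. Acta2, the smooth muscle actin of contractile cells, had 61.2, 15.5, 31.0 and 6.71 normalized counts with DMSO and 12674, 336, 11819 and 384 with MEKi in lines #1, #3, #5 and #10. Its log2 fold change was 6.55 ± 0.65 (SE, limma adjusted p = 0.00056), and lines #1 and #5 were far above the others with MEKi, so that it was 7.28 without line #3 and 5.89 without line #5. Tagln, which encodes the actin-binding protein transgelin, had the same split, with 34.1, 24.2, 13.7 and 14.9 normalized counts before and 8880, 112, 11538 and 182 after. Its log2 fold change was 5.82 ± 1.19 (adjusted p = 0.0066, limma) and ranged from 4.55 without line #5 to 7.04 without line #3, with 5.10 without line #1 and 6.59 without line #10. Cd44, the hyaluronan receptor, was the one that fell, from 13606, 8573, 18102 and 12181 to 5249, 2355, 11600.3 and 4655 normalized counts (2.49-fold, adjusted p = 0.0016, limma). Fibronectin, Fn1, named after its values were seen, rose 8.92-fold with limma adjusted p = 0.00036. Of the fibroblast markers in this list, named after their values were seen, Col1a1 rose 12.1-fold (adjusted p = 0.00087, limma), while Col1a2 stayed at or below 4.29 normalized counts in every library and Lum was listed at 0. The fibroblast markers Pdgfra, Dcn, Thy1 and Col3a1, also in this list, were not called (limma adjusted p = 0.91, 0.99, 0.84 and 0.64).

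**Figure D4:**
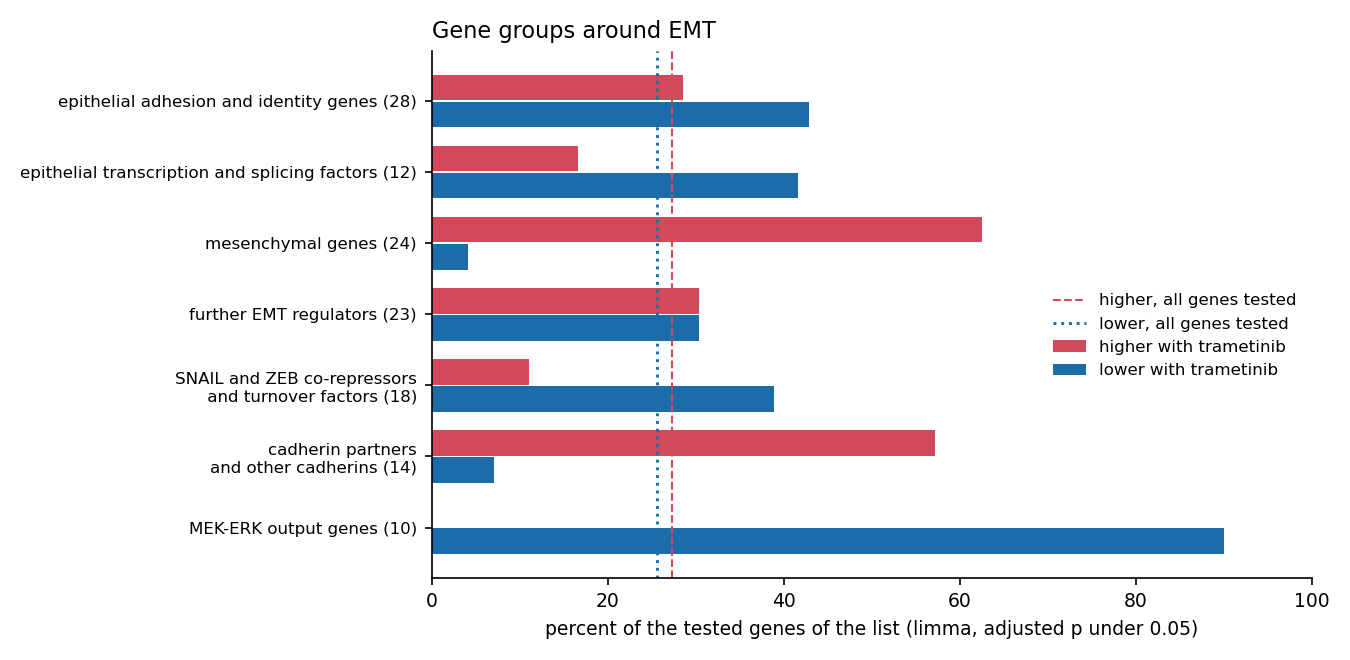
Share of the tested genes of each group (percent, horizontal axis; number tested in brackets) called higher or lower with MEKi by limma at an adjusted p under 0.05; dashed and dotted lines give the shares for all 15888 genes. The mesenchymal genes and the cadherin group have the largest shares of higher calls, and the MEK-ERK output genes the largest share of lower calls.

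Of 28 tested epithelial adhesion and identity genes, 8 rose, 12 fell and 8 did not pass, that is 28.6% and 42.9% beside 27.3% and 25.6% of all genes tested, with a median log2 fold change of -0.20. The 12 lower calls became 7 after scaling to a common total, 6 without line #5 and 0 without the block, and the 8 higher calls became 5 without line #1 and 2 without the block. These moves were not set against those of all genes, whose lower calls also became fewer with this scaling and without the block. Within the claudins, the barrier proteins of tight junctions, Cldn4 had 244, 12.4, 44.7 and 15.3 normalized counts with DMSO and 1164, 671, 1461 and 759 with MEKi, a log2 fold change of 4.61 ± 0.55 (SE, limma adjusted p = 0.00096) that was 5.39 without line #1. Cldn7 fell from 72.1, 963, 132 and 114 to 11.3, 348, 28.9 and 35.0 normalized counts (3.90-fold, adjusted p = 0.0011, limma, and 0.21 without the block). Cldn3 fell from 93.8, 1107, 128 and 504 to 46.8, 94.2, 64.3 and 208 (log2 fold change -1.70, limma adjusted p = 0.016, and 0.14 without the block), and this was -1.08 without line #3. Mal2, an apical transport protein, rose from 2222, 236, 1069 and 565 to 5888, 1749, 4893 and 3470 normalized counts (4.84-fold, adjusted p = 0.00058, limma). All 4 simple-epithelium keratins of the list, Krt7, Krt8, Krt18 and Krt19, singled out after their values were seen, fell, by 1.58-fold to 1.95-fold with limma adjusted p from 0.0054 to 0.029, and all of these calls were lost without the block (adjusted p from 0.0504 to 0.16).

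Among 12 tested epithelial transcription and splicing factors, 2 rose, 5 fell and 5 did not pass (16.7% and 41.7% beside 27.3% and 25.6% of all genes tested, median log2 fold change -0.15). The 5 lower calls became 3 without line #5 and 1 without the block, and the 2 higher calls became 4 after scaling to a common total and 0 without the block. Grhl3 rose from 149, 79.0, 32.3 and 120 to 414, 307, 80.8 and 275 normalized counts (log2 fold change 1.48 ± 0.19, SE, limma adjusted p = 0.0012, and 0.098 without the block). Klf5 fell from 5115, 6047, 6193 and 3614 to 3197, 1861, 3370 and 1893 (2.07-fold, limma adjusted p = 0.0025). Grhl1 fell from 116, 144, 114 and 141 to 87.7, 39.5, 59.7 and 94.8 normalized counts (limma adjusted p = 0.028), but it did not pass without line #5 (0.080), without line #10 (0.052) or without the block (0.059). Esrp1 and Ovol2, an epithelial splicing factor and a repressor of Zeb1, also named after their values were seen, stayed at or below 4.56 and 8.78 normalized counts and were not tested. Esrp2, a relative of Esrp1 named in the same way, had 1437 to 2782 normalized counts. It fell 1.35-fold (limma adjusted p = 0.0073, and 0.072 without the block).

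Of 23 tested further EMT regulators, 7 were higher, 7 lower and 9 not called (30.4% each, close to the 27.3% and 25.6% of all genes tested, median log2 fold change -0.06). The 7 lower calls became 4 without line #1 and 2 without the block. Of the TGFβ ligands, Tgfb2 and Tgfb3 were at the upper end. Tgfb2 had 58.8, 51.2, 103 and 63.9 normalized counts with DMSO and 2160, 1960, 3020 and 2229 with MEKi, a rise of 34.1-fold (log2 fold change 5.09 ± 0.12, SE, limma adjusted p = 1.5e-05). Tgfb3 rose from 484, 308, 338 and 354 to 2904, 3112, 2229 and 2470 normalized counts (7.25-fold, limma adjusted p = 9.4e-05), whereas Tgfb1, named after its values were seen, was at -0.35 on the log2 scale (limma adjusted p = 0.068). Their receptor genes Tgfbr1 and Tgfbr2, named after their values were seen, rose 2.07-fold and 1.65-fold with limma adjusted p = 0.0035 and 0.0034. At the lower end, the AP-1 subunit gene Fosl1 fell from 3366, 1639, 3629 and 4522 to 229, 57.2, 447 and 487 normalized counts (13.3-fold, limma adjusted p = 0.00031), and the chromatin protein gene Hmga2 from 19286, 5458, 13911 and 7294 to 2366, 1984, 2591 and 1546 (4.88-fold, limma adjusted p = 0.00057). Also named after their values were seen, Snai3, a SNAIL family gene, fell 1.99-fold and Twist2, a relative of Twist1, 3.01-fold, with limma adjusted p = 0.018 and 0.031 and neither under 0.05 without the block (0.086 and 0.17).

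SNAIL and ZEB proteins act through co-repressors and are removed by phosphorylation and ubiquitination, and 18 of 19 listed genes of this kind were in the table and tested. Of these, 2 rose, 7 fell and 9 did not pass (11.1% and 38.9% beside 27.3% and 25.6% of all genes tested, median log2 fold change -0.12). The 7 lower calls became 3 without line #1, 3 without line #5, 4 without line #10, 3 without the block and 3 after scaling to a common total, where 4 genes were higher. Fbxl14, whose product marks SNAIL for degradation, fell from 2487, 2349, 2898 and 2321 to 1497, 885, 1608 and 1109 normalized counts (2.02-fold, limma adjusted p = 0.0011), and the Polycomb subunit gene Suz12 from 5703, 6629, 5923 and 6029 to 3130, 2653, 3705 and 3549 (1.87-fold, limma adjusted p = 0.0013). Gsk3b, a kinase that phosphorylates SNAIL ahead of its degradation, rose 1.29-fold (limma adjusted p = 0.015), and Btrc, the ubiquitin ligase subunit that then recognizes SNAIL, 1.35-fold (0.015). Gsk3b did not pass without line #1 (0.061), with centring on the median (0.051) or without the block (0.21), and Btrc did not pass without line #5 (0.065), without line #10 (0.053) or without the block (0.25). For the direct readout of the drug, 9 of 10 MEK-ERK output genes fell, 0 rose and Etv1 did not pass (90.0% lower beside 25.6% of all genes tested, median log2 fold change -2.28). Dusp6, the ERK phosphatase, fell 5.72-fold, and Etv4 and Etv5, the ETS factors, 60.6-fold and 28.2-fold (limma adjusted p = 0.00012, 0.00020 and 0.00032). Cdh3 and Fosl1 stand in 2 of the lists each.

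Genes with the most similar pattern over the 8 libraries were looked up for Cdh1 and Zeb1 among 11439 genes with a mean of at least 100 normalized counts, as Pearson correlations of log2(normalized count + 1). The libraries share 4 lines and 2 treatments, so these values describe the table and carry no test. Cdh1 was most like Fzd3 (0.98), Tmc4 (0.93) and Rhpn2 (0.92) and least like Zfp830 (-0.96), Zbtb26 (-0.95) and Exoc7 (-0.95), and none of these 6 genes was called with MEKi. Zeb1 was most like Kansl1l (0.99), Igf1r (0.99) and Pkhd1 (0.98), which rose 4.65-fold, 2.14-fold and 3.90-fold. It was least like Arl14 (-0.99), Hpdl (-0.98) and Paqr5 (-0.98), which fell 2.39-fold, 4.39-fold and 6.32-fold (limma adjusted p for these 6 from 0.00036 to 0.0012).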

How the data were processed

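Polyadenylated RNA from 8 cultures (4 lines, DMSO or trametinib for 48 h) was sequenced by the authors from stranded mRNA libraries. The submitters' processing notes name CASAVA 2.17, Salmon 0.12, DESeq2 1.18 and mm10, without their roles. The deposited values are normalized counts for each gene, that is a signal that the authors scaled between libraries by a method not given in the sources used here. The values did not resolve into whole reads (40.6% to 62.6% of low values lay within 0.02 reads of a whole multiple), so no count test was run, and the depths and the level of 3 reads are estimates that cover counting error only.

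Values were transformed as log2(normalized count + 1), which understates changes of low genes, and fitted in limma 3.58.1 under R 4.3.3 (lmFit, then eBayes with trend, line as block, genes with a mean of at least 10, Benjamini-Hochberg over 15888 genes, threshold 0.05). The fit was also run on simulated data, but the outcome is not given here and no result rests on it. Both libraries of a line carry its number in the labels, and deviations from the group means correlated at 0.63 to 0.72 within lines and at -0.31 to -0.02 between lines. Ratios and contrasts per line have no test. Exon lengths and positions came from GENCODE M21 on GRCm38, matched by symbol, and upstream sequences from RefSeq on GRCm38.p6, where windows were read for 5 members. Each length covers all annotated exons of a gene and may differ from that of the transcripts present. All comparisons of genes per kb depend on it. Named genes are the 10 members, the 2 largest called rises and falls of each list, Dusp6 and the genes most and least like Cdh1 and Zeb1, with 1 of the list genes and 1 allele not reported here, and the other genes named, cell type markers included, were chosen after their values were seen. The members and lists were chosen with earlier results of these data known. Alternatives were other pseudocounts, scalings, filters and eBayes settings, no block, a minimum change of 2-fold and leaving out each line.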

Additional observations from a re-analysis of the deposited data

Results flagged for a closer look

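Among 61 groups of 4 values, 6 had 1 value far from the other 3, where chance gives about 3.05 (1 in 20). The Epcam values and the contrast of the pairs share the same Epcam counts of line #3. The 6 are therefore not independent and cannot be set against that chance count. Epcam had 10.4 normalized counts with DMSO and 3.75 with MEKi in line #3 while the other 3 lines were listed at 0 in both groups, and its log2 change was -1.26 in line #3 beside 0 in the others. The change of the epithelial pair minus that of the mesenchymal pair was -1.06 in line #3 beside -0.16 to 0.01 in the others. The Cdh1 to Cdh2 ratio per kb with DMSO was 5.89 in line #10 beside 9.42 to 10.1 in the others. The log2 change of Cldn3 was -3.54 in line #3 beside -1.27 to -0.98 in the others.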

How the results depend on the processing

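Cdh2 and Zeb1 kept their direction and their call under 14 of the 15 alternatives, and Zeb2 and Vim under 13. A minimum change of 2-fold left 0 of the members higher and 0 lower, with 557 genes higher and 176 lower in the whole table. Without the replicate block, in which the 2 libraries of a line are no longer paired, 2205 genes were higher and 2347 lower, 2 members (Cdh2 and Zeb1) were higher and 0 lower. Over leaving out each line in turn, the log2 fold change ran from 1.00 to 1.25 for Cdh2, 0.51 to 0.63 for Zeb1, 0.69 to 0.90 for Zeb2 and -0.85 to -0.68 for Vim, with 3 members higher and 1 lower each time. Rescaling to equal totals moved the median log2 fold change of all genes from 0.07 to 0.20 and the calls from 4341 higher and 4075 lower to 5315 and 3284. The results that changed sign had no call and were Twist1 (0.12 with equal totals, 0.044 without line #1 and 0.024 without line #5, and from -0.076 to 0.044 over leaving out lines), Cdh1 (0.11 with equal totals, 0.26 with quantile normalization, and from -0.064 to 0.071 over leaving out lines) and Snai2 (-0.11 with quantile normalization). The cause was not tested. With Cdh1 alone in place of the epithelial pair, chosen after seeing the data, the mean difference from the mesenchymal pair was -0.19 and from the EMT factors -0.51. Of the list medians, those of the further EMT regulators (0.07 with equal totals, 0.01 with quantile normalization) and of the co-repressors (0.0039 with equal totals) lost their negative sign. Without the block, the epithelial adhesion genes had 2 higher and 0 lower, the epithelial factors 0 and 1, the mesenchymal genes 10 and 1, the further regulators 7 and 2, the co-repressors 0 and 3, the cadherin group 6 and 1 and the MEK-ERK output genes 0 and 9. Counts of the lists also moved by over 1.5 times when a line was left out: the epithelial adhesion genes had 5 higher without line #1 and 6 lower without line #5, the epithelial factors 3 lower without line #5, the further regulators 4 lower without line #1, and the co-repressors 3, 3 and 4 lower and 1 higher each without lines #1, #5 and #10. Counts over all genes without single lines are not given here, so these moves, here and above, are not set against the whole table. With equal totals the epithelial adhesion genes had 7 lower, the epithelial factors 4 higher and the co-repressors 4 higher and 3 lower, and with quantile normalization the epithelial adhesion genes had 7 lower and the co-repressors 4 lower. Epcam and Grhl2, tested with no filter, had log2 fold changes of -0.32 and 0.07 (limma adjusted p = 0.61 and 0.95). Epcam, Grhl2 and Snai1 did not exceed 10.4, 15.9 and 43.3 normalized counts, beside 2.325 to 3.7215 for 3 reads.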
